A study of Homo sapiens with 6 samples.

Results

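The proteasome genes were described in 6 poly-A RNA-seq libraries of HMEC-1, a line of human skin microvessel endothelium made immortal, cultured with 5.5 mM glucose (MCDB131). RNA was taken after lentiviral delivery of an shRNA against SETD7 (Set7KD, n = 3) or of a non-targeting shRNA (NTC, n = 3). The members were all rows of the count table whose symbol is PSM, a letter from A to G and a number, without pseudogenes. This gave 46 genes of the 18544 listed, and all 46 were among the 18482 genes that passed the filter on low counts. PSMA8 and PSMB11, the germ-cell and thymus forms, were not analysed here. The 3 libraries of a group are described as biological replicates, with no word on whether each had its own lentiviral delivery. The p-values therefore rest on library-to-library spread, which may be technical.

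The proteasome is the protease that degrades proteins tagged with ubiquitin. Its 20S core is a barrel of alpha and beta subunit rings, and the 19S regulatory particle at the ends of the barrel recognises, unfolds and feeds in the substrate through a base, which holds a ring of ATPases, and a lid. In cells exposed to interferon the catalytic subunits encoded by PSMB5, PSMB6 and PSMB7 are replaced in newly built cores by those of PSMB8, PSMB9 and PSMB10, which gives the immunoproteasome and changes the peptides available to MHC class I. Endothelial cells are known to express immune subunits and to raise them with interferon.

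Total gene counts per library ran from 16385878 to 16953331, so that 1 count was worth 0.059 to 0.061 CPM (counts scaled to a common library size after TMM normalisation). SETD7, the targeted gene, stood at 180, 178 and 176 CPM in NTC and at 27.8, 43.8 and 26.7 CPM in Set7KD, so each library matched its label. Of 7 endothelial markers 6 were tested (CDH5, TIE1, ERG, TEK, KDR and VWF, but not PECAM1). Their summed level was 440.7 to 561 CPM in NTC and 345.5 to 384 CPM in Set7KD. By edgeR 2 of the 6 were lower, CDH5 and TIE1 (folds of 0.575 and 0.608). Another 2 were higher, KDR and TEK (folds of 1.61 and 1.31). Among all genes tested 18.6% were lower and 17.6% higher. Of 4 fibroblast markers 3 were tested, COL1A1, PDGFRA and LUM, and their sum stood at 1288 to 1828 CPM in NTC and 2416 to 3151 CPM in Set7KD, nearly all of it COL1A1. Of 6 leukocyte markers CD14 alone was tested, at a summed 5.21 to 5.96 CPM in NTC and 3.37 to 4.3 CPM in Set7KD. The part of these shifts in the results below was not tested. In bulk RNA, fewer cells of a type and less RNA per cell cannot be told apart.

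A motif of interferon-responsive promoters lies near the start sites of several immune members, and those sequences are shown first. It was picked for display from the motifs searched because the 3 genes that fell all hold it. That match is therefore a description of these data and no test of a cause. Each line runs from 80 bases before the RefSeq start site (GRCh38.p14) through the first 20 transcribed bases, on the strand of the gene. Capitals mark a match to the interferon-stimulated type motif, GAAA and GAAA with any 2 bases between them, read on either strand. PSMB10, PSMB8 and PSME1 were lower in Set7KD, while PSMB9, PSME2 and PSMG4 did not pass the test and are shown for contrast. PSMB8 has 2 listed start sites, and the window with the match is shown.
PSMB10, chr16:67936831-67936930, minus strand: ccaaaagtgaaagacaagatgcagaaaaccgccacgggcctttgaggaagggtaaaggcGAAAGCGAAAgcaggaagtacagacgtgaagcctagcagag
PSMB8, chr6:32844028-32844127, minus strand: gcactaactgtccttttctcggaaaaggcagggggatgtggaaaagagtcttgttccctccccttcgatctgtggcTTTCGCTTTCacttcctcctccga
PSME1, chr14:24136114-24136213, plus strand: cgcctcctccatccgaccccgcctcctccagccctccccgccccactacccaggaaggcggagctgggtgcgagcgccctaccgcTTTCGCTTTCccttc
PSME2, chr14:24146591-24146690, minus strand: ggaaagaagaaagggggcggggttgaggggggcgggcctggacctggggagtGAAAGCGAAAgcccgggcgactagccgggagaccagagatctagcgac
PSMG4, chr6:3258867-3258966, plus strand: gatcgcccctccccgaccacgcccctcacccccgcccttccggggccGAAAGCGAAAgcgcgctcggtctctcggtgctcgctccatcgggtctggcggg
PSMB9, chr6:32854112-32854211, plus strand: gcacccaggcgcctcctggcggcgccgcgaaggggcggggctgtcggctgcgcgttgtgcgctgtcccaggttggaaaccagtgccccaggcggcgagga

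Most proteasome genes that differed were higher in Set7KD, and those that were lower belonged to the interferon-inducible genes. Of the 46 members 23 rose, 3 fell and 20 did not pass an edgeR adjusted p of 0.05. Of all genes tested, 17.6% were higher and 18.6% lower by the same rule. The median log2 fold change was 0.15 over the members and -0.01 over all genes tested. Without any overlap between the groups' CPM were 28 members in the higher and 4 in the lower direction, where all genes gave 23.3% and 24.1%. The changes were small. The highest was a fold of 1.53 for PSMG1, and the lowest among called members a fold of 0.769 for PSMB10. The CPM of the 46 members summed to 4964, 4903 and 4863 in NTC and to 5487, 5545 and 5577 in Set7KD, so the whole group took a larger part of the counts in every Set7KD library. Without Set7KD replicate 1 the counts were 19 higher and 1 lower.

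**Figure D1:**
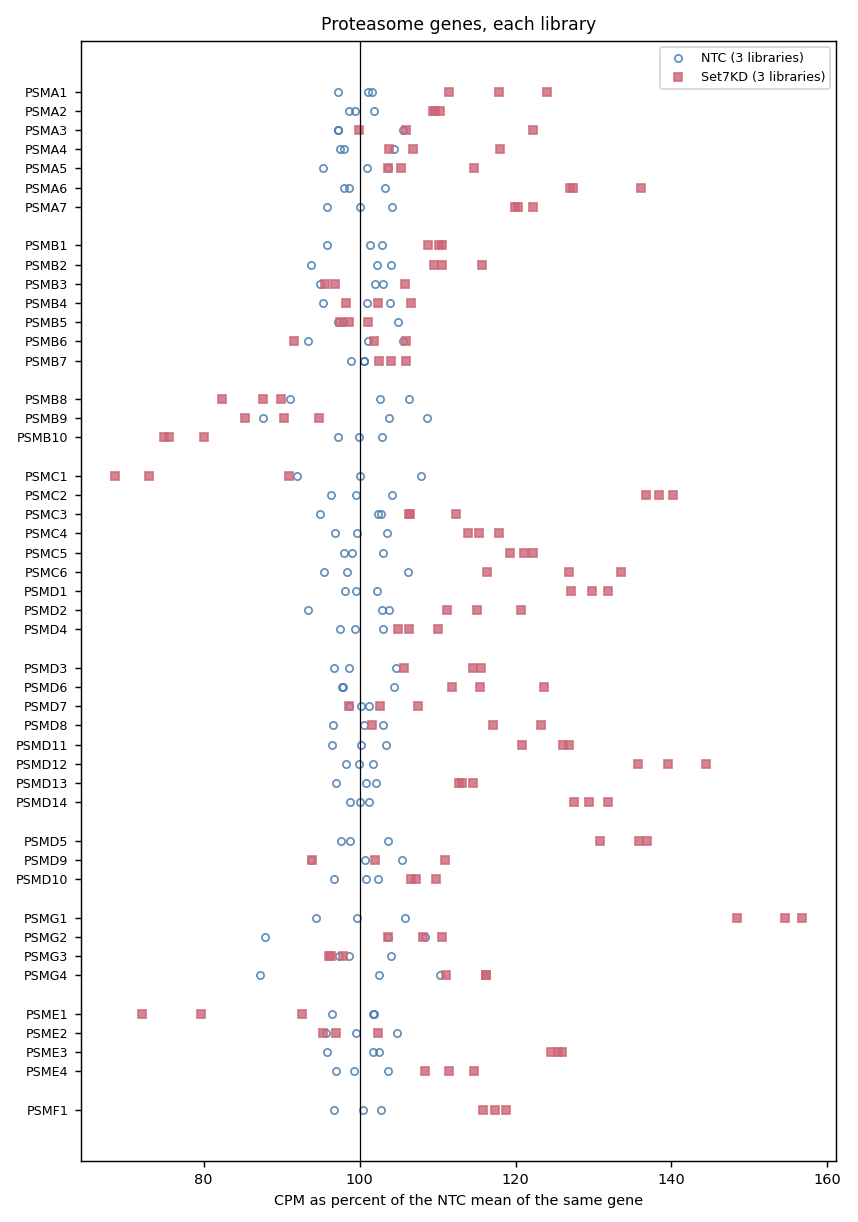
CPM of each proteasome gene in each library as a percent of that gene's NTC mean (x axis), with genes in rows grouped by role, open circles for the 3 NTC libraries and filled squares for the 3 Set7KD libraries. The squares of PSMG1, PSMD12 and PSMC2 lie well to the right of the circles, and those of PSMB10 to the left.

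The 19S regulatory particle held the most risers, with 13 of 17 genes higher and 4 not called, and a median log2 fold change of 0.21. The share of all genes tested that were higher was 17.6%. In the base, PSMC2, an ATPase of the ring, had 84.9, 88.8 and 82.1 CPM in NTC and 117, 120 and 118 CPM in Set7KD. The groups lay far apart, with a log2 fold change of 0.47 ± 0.05 (SE) and an edgeR adjusted p of 9.62e-06. PSMD1, a large scaffold subunit of the base, had 222, 231 and 225 CPM in NTC and 287, 293 and 298 CPM in Set7KD, a fold of 1.3 (edgeR adjusted p = 3.58e-05). PSMC5, another ATPase, had 176, 184 and 175 CPM in NTC and 216, 213 and 218 CPM in Set7KD (fold 1.21, edgeR adjusted p = 0.000551). All Set7KD values of these genes stood above all NTC values. Of the other base genes, the ATPase genes PSMC6 and PSMC4 and the scaffold gene PSMD2 rose by folds of 1.26, 1.16 and 1.16, while PSMC3 and PSMD4, which encodes a ubiquitin receptor, did not pass. The interval (95%) of the log2 fold change ran from 0.00 to 0.23 for PSMC3 and from -0.02 to 0.22 for PSMD4, so rises of the size seen in PSMC4 are inside it for both.

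PSMC1, the remaining ATPase gene, stood apart in level. It had 5.03, 5.42 and 4.62 CPM in NTC and 3.45, 4.57 and 3.67 CPM in Set7KD, with no overlap of the groups, but did not pass (log2 fold change -0.37 ± 0.16 SE, edgeR adjusted p = 0.0803). Without Set7KD replicate 2 it passed as lower, at 0.0335. Per kilobase of the longest coding transcript its NTC level was 1.13 CPM, against 14.6 to 118 CPM per kilobase for the other 5 ATPase genes, whose products share the ring with it in equal number. In the GENCODE 29 annotation 75.8% of the exonic bases of PSMC1 overlap NRDE2 on the opposite strand, and 97.7% of the 36-base words of its longest coding transcript also occur in transcripts of other genes. Those are the highest values of the 46 members. For the base genes PSMC6 and PSMC5, called higher above, the share of such words is 31.1% and 23.6%. The sources used here do not say how such reads were counted, so the PSMC1 value is uncertain as a measure of the gene.

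In the lid 7 of 8 genes rose, where 17.6% of all genes tested were higher. PSMD12, a lid scaffold subunit, had 97.0, 95.4 and 98.7 CPM in NTC and 132, 140 and 135 CPM in Set7KD, a log2 fold change of 0.48 ± 0.05 (SE) with an edgeR adjusted p of 5.57e-06. PSMD14, the enzyme that cuts ubiquitin off the substrate, had 96.2, 97.4 and 98.5 CPM in NTC and 124, 126 and 128 CPM in Set7KD (fold 1.3, edgeR adjusted p = 4.68e-05). PSMD11, a lid subunit, had 133, 129 and 124 CPM in NTC and 163, 155 and 162 CPM in Set7KD (fold 1.25, edgeR adjusted p = 0.000246). The gap between the groups was several times the spread within them for all 3 genes. PSMD6 and PSMD13 rose by folds of 1.17 and 1.14. PSMD8 and PSMD3 rose by folds of 1.14 and 1.12, but DESeq2 did not call them, with adjusted p of 0.0559 and 0.055. PSMD8 was the one called member whose groups overlapped, and limma-voom gave it 0.0584. Without a single library its edgeR adjusted p reached 0.156, and it was lost without any library except Set7KD replicate 2. PSMD3 was lost, at up to 0.117, without NTC replicate 2 or 3 or Set7KD replicate 1 or 3. PSMD7, a partner of PSMD14, did not pass, with 114.5, 112 and 113 CPM in NTC and 122, 116 and 112 CPM in Set7KD and an interval of -0.07 to 0.16.

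**Figure D2:**
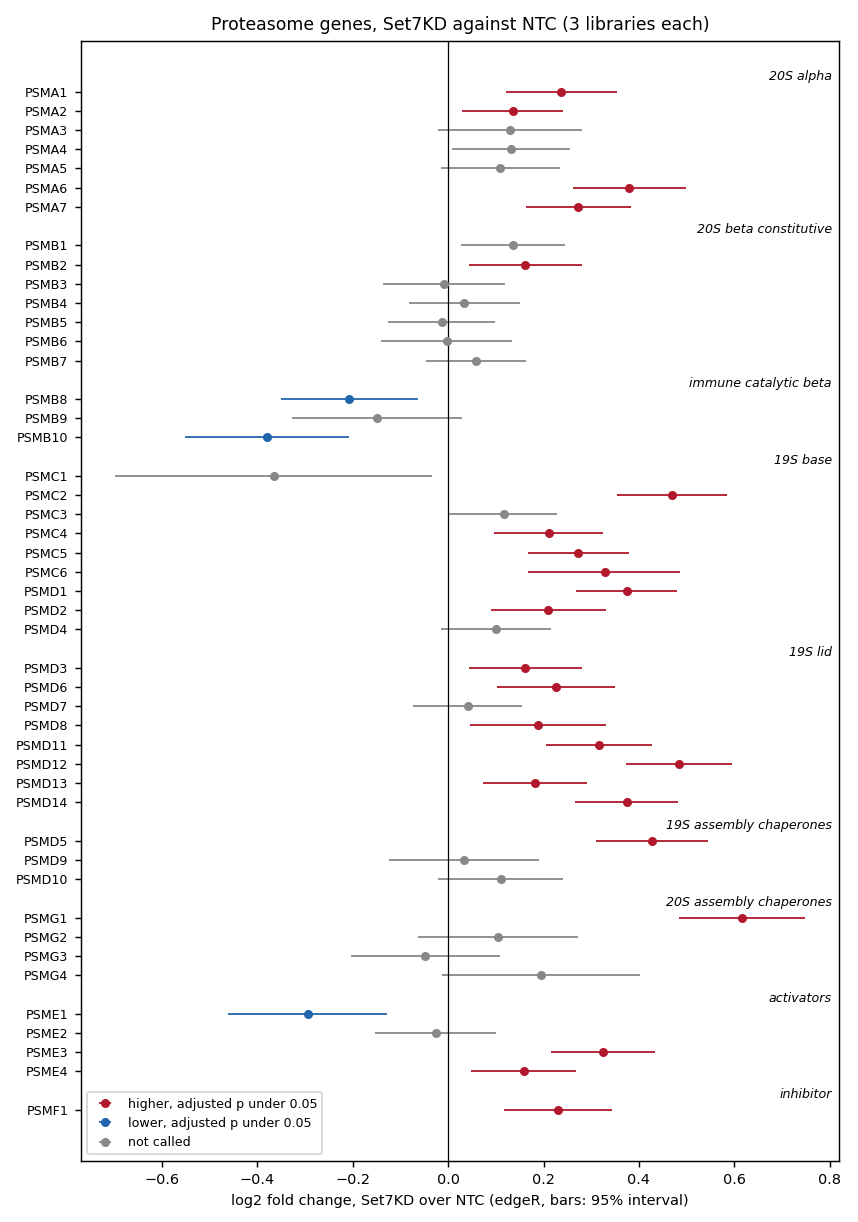
Log2 fold change of Set7KD over NTC from edgeR (x axis) for the 46 proteasome genes in rows grouped by role, with bars for the 95% interval and colours for the call at an adjusted p of 0.05. Genes of the 19S base and lid sit mostly to the right of 0, constitutive beta genes close to 0, and PSMB8, PSMB10 and PSME1 to the left. The base gene PSMC1 (-0.37) and PSMB9 (-0.15) also lie to the left but were not called.

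In the 20S core, 5 of 14 alpha and constitutive beta genes rose and the other 9 did not pass. Among all genes tested 17.6% were higher by the same rule. For the 7 constitutive beta genes, 1 rose, which is near that share. The median log2 fold change was 0.14 for the 7 alpha genes and 0.03 for the 7 beta genes. PSMA6, an alpha subunit, had 79.2, 75.1 and 75.7 CPM in NTC and 97.7, 104 and 97.3 CPM in Set7KD, a log2 fold change of 0.38 ± 0.06 (SE) with an edgeR adjusted p of 8.64e-05. PSMA7 had 151, 139 and 145 CPM in NTC and 173, 174 and 177 CPM in Set7KD (fold 1.21, edgeR adjusted p = 0.00077). PSMA1 rose by a fold of 1.18 and PSMA2 by a fold of 1.1. The groups of these 4 alpha genes did not overlap. For PSMA6, 85.8% of the 36-base words of its transcript are shared with other genes, most with AL121594.1. That share is 51.7% for PSMA2, most with AC010132.3, and 46.85% for PSMA1, most with AC018523.2. Each of these sharing genes overlaps its alpha gene on the same strand. What part of the counts this sharing affected was not tested, so it remains uncertain. Per kilobase of the longest coding transcript, the NTC level was 74.5 CPM for PSMA6, 84.8 for PSMA2 and 97.05 for PSMA1. The other alpha genes ran from 24.0 (PSMA5) to 145.2 (PSMA7).

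Support for the core genes with the smallest changes was weak. PSMA2 passed with an edgeR adjusted p of 0.0454. It was lost in DESeq2, at 0.09, and without each of the 6 libraries in turn, at 0.0523 to 0.131. PSMB2, a constitutive beta subunit, had 140, 138 and 126 CPM in NTC and 147, 149 and 156 CPM in Set7KD, which do not overlap (fold 1.12, edgeR adjusted p = 0.0325). It was lost in DESeq2, at 0.0544, and without NTC replicate 3 (0.124), Set7KD replicate 1 (0.0581) or Set7KD replicate 3 (0.0955). With the replicate block (replicate number added to the model), PSMA3, PSMA4 and PSMB1 passed as well, with edgeR adjusted p of 0.0488, 0.0207 and 0.0178, and the count of core genes rose from 5 to 8. PSMA4 and PSMB1 also passed without 1 library, PSMA4 without Set7KD replicate 3 (0.0487) and PSMB1 without NTC replicate 3 (0.0437). In DESeq2 the count was 3, and without Set7KD replicate 1 it was 3.

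Of the immune catalytic subunits PSMB10 and PSMB8 fell, while PSMB9 and the constitutive counterparts PSMB5, PSMB6 and PSMB7 did not pass. Among all genes tested 18.6% were lower by the same rule. PSMB10, the immune counterpart of PSMB7, had 23.9, 24.6 and 23.2 CPM in NTC and 17.9, 18.1 and 19.1 CPM in Set7KD. The Set7KD level was 76.9% of the NTC level, with a log2 fold change of -0.38 ± 0.08 (SE) and an edgeR adjusted p of 0.00186, and the gene stayed lower under all 13 alternatives. PSMB8, the counterpart of PSMB5, had 72.6, 75.3 and 64.5 CPM in NTC and 62.0, 63.7 and 58.3 CPM in Set7KD, so the groups nearly touched. It fell by 0.21 ± 0.07 (SE) on the log2 scale, with an edgeR adjusted p of 0.0251. This call was lost in DESeq2 (0.059) and without NTC replicate 1 (0.1) or 2 (0.109) or Set7KD replicate 1 (0.069) or 3 (0.112). Its edgeR adjusted p was smaller with the replicate block (0.00419) and without NTC replicate 3 (0.00497). PSMB9, the counterpart of PSMB6, had 39.8, 38.1 and 32.1 CPM in NTC and 31.3, 34.7 and 33.1 CPM in Set7KD. NTC replicate 3 lay among the Set7KD values and the gene did not pass (edgeR adjusted p = 0.179). Without that library it passed as lower, at 0.0299 and a log2 fold change of -0.24.

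The constitutive counterparts stayed near their NTC level. PSMB5, which carries the chymotrypsin-like activity, had 147, 137 and 136 CPM in NTC and 138, 136 and 141 CPM in Set7KD, and the interval of its log2 fold change was -0.13 to 0.10. PSMB6, with the caspase-like activity, had 111, 103 and 116 CPM in NTC and 112, 101 and 117 CPM in Set7KD, with an interval of -0.14 to 0.13. PSMB7, with the trypsin-like activity, had 159, 156 and 159 CPM in NTC and 164, 167 and 162 CPM in Set7KD, with an interval of -0.05 to 0.16. PSMB5 and PSMB6 overlapped fully between the groups, and the PSMB7 values were slightly higher in every Set7KD library without passing. The noncatalytic beta genes PSMB3 and PSMB4 had folds of 0.994 and 1.02 and did not pass either.

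The ratio of each immune gene to its counterpart was taken within each library. PSMB10 stood at 15, 15.7 and 14.6% of the PSMB7 CPM in NTC and at 10.9, 10.8 and 11.8% in Set7KD. PSMB8 stood at 49.5, 55 and 47.4% of PSMB5 in NTC and at 45, 46.7 and 41.2% in Set7KD. PSMB9 stood at 35.8, 37 and 27.6% of PSMB6 in NTC and at 27.9, 34.4 and 28.4% in Set7KD. The groups did not overlap for the first 2 pairs and overlapped for the third. The log2 ratio differed by -0.44 for PSMB10 to PSMB7, -0.19 for PSMB8 to PSMB5 and -0.14 for PSMB9 to PSMB6. An exact two-sided permutation test gave p = 0.1, 0.1 and 0.4, and 0.15, 0.15 and 0.4 after Benjamini-Hochberg adjustment over the 3 pairs. With 3 libraries against 3 the smallest possible p is 0.1. Without a single library the difference ranged from -0.48 to -0.41 for PSMB10, from -0.24 to -0.13 for PSMB8 and from -0.27 to -0.06 for PSMB9. Leaving out NTC replicate 2 gave the value nearest to 0 for each pair. The PSMB9 difference moved by more than 1.5 times without any of the libraries except Set7KD replicate 3, to -0.09 without NTC replicate 1 or Set7KD replicate 1, -0.06 without NTC replicate 2, -0.27 without NTC replicate 3 and -0.24 without Set7KD replicate 2.

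**Figure D3:**
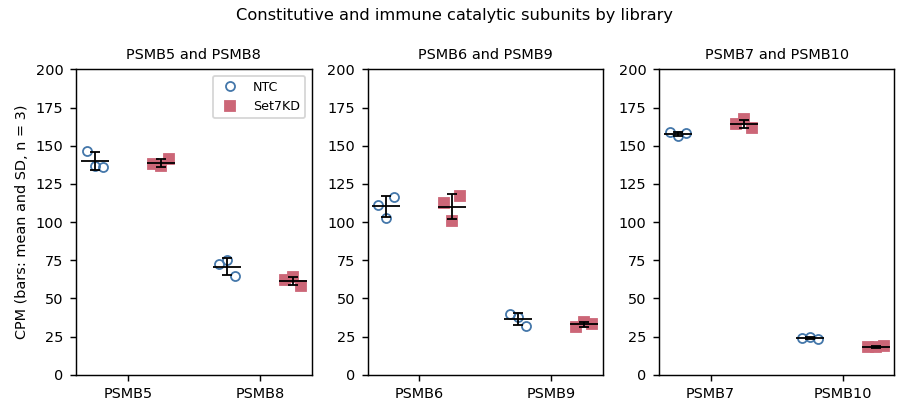
CPM of the constitutive catalytic genes PSMB5, PSMB6 and PSMB7 and of their immune counterparts PSMB8, PSMB9 and PSMB10 (y axis), with 1 point per library, open circles for NTC and filled squares for Set7KD, and bars for mean and SD (n = 3). The immune genes are the lower points of each panel, and the Set7KD squares of PSMB10 sit below its NTC circles while PSMB5 and PSMB6 overlap.

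Immune subunits were present in both groups in the absence of any labelled interferon treatment. Per kilobase of the longest coding transcript, the NTC level was 52.4 CPM for PSMB8 against 108 for PSMB5, 46.3 for PSMB9 against 127 for PSMB6, and 19.6 for PSMB10 against 161 for PSMB7. The transcript in use was not measured, so these levels per length are rough. PSMB10 shares 34.8% of its exonic bases with AC040162.1 on the same strand, and PSMB8 shares 20.6% with PSMB8-AS1 on the opposite strand, which leaves part of their counts uncertain.

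Among the activators, which cap the core in place of the 19S particle, PSME1 and PSME2 encode the interferon-inducible pair. PSME1, the alpha subunit of the PA28 activator, had 184, 184 and 174 CPM in NTC and 144, 167 and 130 CPM in Set7KD, a log2 fold change of -0.29 ± 0.08 (SE) with an edgeR adjusted p of 0.00908. The groups did not overlap, but the Set7KD libraries were spread, and without Set7KD replicate 1 the adjusted p was 0.053. PSME2, its beta subunit, had 71.5, 67.9 and 65.4 CPM in NTC and 66.3, 69.9 and 65.0 CPM in Set7KD, with overlap of the groups, and did not pass (interval of -0.15 to 0.10 on the log2 scale). The difference between the responses of PSME1 and PSME2 was not tested. The nuclear activator gene PSME3 rose, with 129, 130 and 122 CPM in NTC and 158, 160 and 159 CPM in Set7KD (fold 1.25, edgeR adjusted p = 0.000169). PSME4, which encodes the large activator PA200, rose by a fold of 1.12 (edgeR adjusted p = 0.0267) and was lost without NTC replicate 1 (0.127) or 2 (0.0659) or Set7KD replicate 2 (0.0608) or 3 (0.0541). PSMF1, named as an inhibitor of the core, had 88.0, 84.7 and 90.1 CPM in NTC and 103, 101 and 104 CPM in Set7KD (fold 1.17, edgeR adjusted p = 0.00311).

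The assembly chaperones gave the highest single rise, and 5 of the 7 did not pass. PSMG1, a chaperone that guides formation of the alpha ring, had 44.3, 49.6 and 46.7 CPM in NTC and 73.5, 72.4 and 69.5 CPM in Set7KD. Its log2 fold change was 0.62 ± 0.06 (SE), with an edgeR adjusted p of 2.89e-06. PSMG2, which forms a dimer with PSMG1, had 32.8, 40.5 and 38.7 CPM in NTC and 40.4, 38.7 and 41.3 CPM in Set7KD and did not pass, so the transcripts of the dimer's partners had different outcomes under the same test; their difference was not tested. PSMG3 and PSMG4, which form the other such dimer, did not pass, at folds of 0.967 and 1.15. PSMD5, a chaperone of the 19S base, had 71.8, 70.9 and 75.3 CPM in NTC and 99.5, 98.8 and 95.1 CPM in Set7KD (fold 1.35, edgeR adjusted p = 2.65e-05). The other base chaperone genes, PSMD9 and PSMD10, did not pass, with folds of 1.02 and 1.08. In all, 2 of 7 chaperone genes rose, where 17.6% of all genes tested were higher. Without overlap of the groups' CPM 4 of the 7 were in the higher direction, where all genes gave 23.3%.

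The match between direction and promoter letters was counted over all members with a RefSeq promoter window of 300 bases, 250 before the start site and 50 from it on. A window was found for 40 of the 46 genes. The interferon-stimulated type motif shown above occurred in the windows of 7 members, PSMB10, PSMB8, PSME1, PSME2, PSMG4, PSMB4 and PSMA4, and in 3.6% of all 35116 windows. All 3 members that fell had a match, as did 4 of the 15 members with a window that were not called, and none of the 22 that rose. Of all 27305 genes with a window, 4.4% had a match, so the 0.0% among members that rose is near the share of all genes. The match began 21 bases before the start site in PSMB10, 4 before it in PSMB8, 28 before it in PSME2, 33 before it in PSMG4 and 5 after it in PSME1. PSME2 and PSMG4 thus hold the same 10 letters as PSMB10 without a called change, at log2 fold changes of -0.03 and 0.20. These matches are a description of letters in a window and say nothing of binding.

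**Figure D4:**
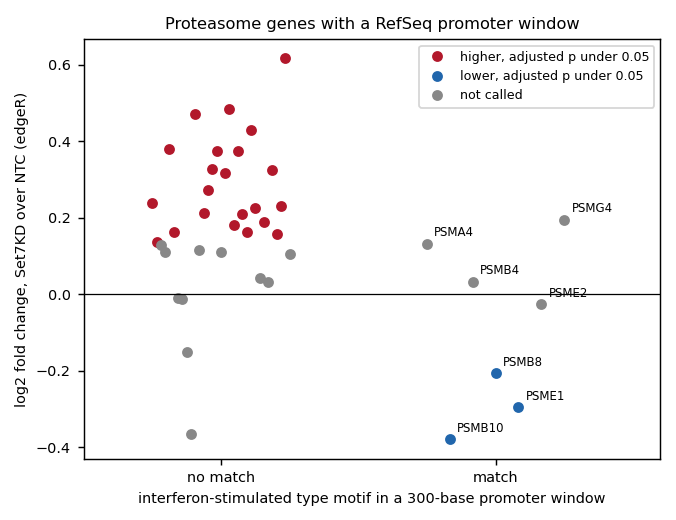
Log2 fold change of Set7KD over NTC from edgeR (y axis) for the 40 proteasome genes with a promoter window, split by whether a window holds the interferon-stimulated type motif (x axis), with 1 point per gene coloured by its call. The 3 genes called lower are in the group with a match, beside 4 genes that were not called, and the genes called higher are in the group without one. Of all genes with a window, 4.4% had a match.

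The other motifs were counted in the same windows, with no test of a difference between groups of members. The loose antioxidant type motif, TGA and GC with any 4 bases between them, searched on both strands, was in 53.8% of the 26 windows of members that rose, in 75.0% of the 4 windows of members that fell, in 68.4% of the 19 windows of members not called and in 41.8% of all windows. The interferon-stimulated type motif was also in 75.0% of the windows of members that fell. These shares count windows, of which PSMB8 has 2. By gene, all 3 members that fell had the interferon-stimulated type, while PSMB10 had no antioxidant type match. The CCAAT box was in 38.5% of the windows of members that rose, in 0.0% of those of members that fell and in 34.6% of all windows. The AP1 type motif TGACTCA, which can overlap the antioxidant type, was in 7.7% and 4.9%, and the STAT type motif, TTC and GAA with any 3 bases between them, in 19.2% and 7.7%. In the windows of members that fell the AP1 type was in none and the STAT type in 1 of 4. The nuclear respiratory factor type motif, a palindrome of 10 letters, was in 2 windows of members, both of PSMA4 and overlapping. All motifs were searched on both strands.

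Of 13 genes of interferon signalling and MHC class I presentation, 6 fell, 3 rose and 4 did not pass, with a median log2 fold change of -0.22. By the same rule 18.6% of all genes tested were lower and 17.6% higher. STAT2, a subunit of the interferon-activated factor ISGF3, had 108, 117 and 89.8 CPM in NTC and 57.1, 63.7 and 56.2 CPM in Set7KD (fold 0.562, edgeR adjusted p = 4.9e-05). IRF1, a factor that induces PSMB8, PSMB9 and PSMB10 after interferon gamma, had 53.0, 56.0 and 41.4 CPM in NTC and 28.4, 32.8 and 26.6 CPM in Set7KD (fold 0.584, edgeR adjusted p = 0.00063). JAK1, a kinase of interferon receptors, rose by a fold of 1.21, and IFNGR2, a chain of the interferon gamma receptor, fell to a fold of 0.835. IFNGR1, the other chain of that receptor, rose by a fold of 1.2 (edgeR adjusted p = 0.006). It was picked after its values were seen. In these genes NTC replicate 3 had the lowest NTC level of STAT2 and IRF1, as it had of PSMB8, PSMB9 and PSMB10. TAP1, the peptide transporter gene that lies head to head with PSMB9, was picked after its values were seen. It had 99.4, 109 and 77.9 CPM in NTC and 79.9, 86.4 and 79.5 CPM in Set7KD and did not pass (edgeR adjusted p = 0.171). With the replicate block it passed as lower at 0.0223, and without NTC replicate 3 at 0.000823.

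Of 34 partners and regulators of the proteasome outside the PSM symbols, 14 rose and 6 fell, with a median log2 fold change of 0.09. Of all genes tested, 17.6% were higher and 18.6% lower by the same rule. The number of partners and regulators that fell is thus near the share of all genes. TXNL1, a thioredoxin-like protein bound to the 19S particle, had 56.1, 57.7 and 58.8 CPM in NTC and 74.9, 79.8 and 77.5 CPM in Set7KD (edgeR adjusted p = 3.75e-05). USP14, a deubiquitinase that binds the base, had 130, 130 and 133 CPM in NTC and 167, 169 and 170 CPM in Set7KD (edgeR adjusted p = 4.48e-05). MAFG, a small MAF protein that pairs with the NFE2L factors, fell to a fold of 0.724.

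The following regulators were picked after their values were seen. POMP, the chaperone that matures the beta ring, rose from 82.5, 78.5 and 79.4 CPM in NTC to 101, 97.5 and 102 CPM in Set7KD (fold 1.25, edgeR adjusted p = 0.000265). NFE2L1, the factor that restores proteasome genes when the proteasome is inhibited, had 316, 313 and 309 CPM in NTC and 315, 306 and 311 CPM in Set7KD and did not pass (edgeR adjusted p = 0.921). NGLY1, the deglycosylating enzyme that activates it, rose by a fold of 1.24. NFE2L2 and MAFK fell to folds of 0.807 and 0.458. MAFF had a fold of 0.304 and an edgeR adjusted p of 0.0213, and was lost, at 0.0503 to 0.0728, without any of the libraries except NTC replicate 3.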

How the data were processed

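Poly-A RNA of 6 libraries was measured. Per the submitters' processing notes BWA, bedtools and the build hg19 were used, with no version given. The authors deposited raw read counts for each gene; strand setting and handling of multiply matching reads are not given in the sources used here. The row for reads outside genes, 55.6 to 56.1% of each library, was left out.

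The counts went into edgeR 4.0.16 under R 4.3.3 (glmQLFTest after filterByExpr, TMM and a robust glmQLFit), with Benjamini-Hochberg adjustment over 18482 genes and calls at 0.05. The standard error is the absolute log2 fold change over the square root of F. The fit was tested on simulated data. RLE and upper-quartile scaling, filters, a replicate block, DESeq2 1.42.0, limma-voom (limma 3.58.1), a threshold of 0.01 and each library left out were alternatives. Over 11151 genes, libraries sharing a replicate number had deviations from their group means that correlated at 0.30, 0.42 and 0.34, which met the rule for taking the numbers as pairs. This rests on the data and not on the labels. The reported fit and the ratio tests are unpaired, and the replicate block is the alternative. Within a group, no pair of libraries looked like a repeat deposit (chi-square per degree of freedom 2.98 to 9.85).

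The named genes were the 3 immune subunits, their counterparts, PSME1, PSME2, up to 4 genes of smallest p per subgroup and list, and other members with values. A gene that this rule would name is not reported here. Members and lists were chosen with earlier results of these data known. Lengths and shared words come from GENCODE 29 (45 members matched by identifier, 1 by symbol) and promoters from RefSeq, both on GRCh38, a later build than the counts. Python 3.11.15 was used.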

Additional observations from a re-analysis of the deposited data

How the results depend on the processing

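Of the 26 called members, 19 kept their call and direction under all 13 alternative fits, 18 higher and 1 lower. The replicate block raised the 20S core count from 5 to 8 and changed no other count by more than 1.5 times. The members it added and TAP1 are named above, it changed no other named call, and it gave 26 higher and 3 lower in all. DESeq2 gave 3 core genes higher and 1 immune subunit lower. At an adjusted p under 0.01, 3 core genes and 9 partner and regulator genes were higher and 1 immune subunit lower. With each library left out in turn, the lower members numbered 1 to 4, core genes higher 3 to 4, 19S genes lower 0 to 1, immune subunits lower 1 to 3 and activator or inhibitor genes lower 0 to 1. No called member changed direction. Among members near 0 that were never called, PSMB3 ranged from -0.05 to 0.02 over all alternatives and PSMD9 from -0.022 to 0.092. PSMB4 ranged from a negative value that rounds to 0 up to 0.063. PSMB5 was at 0.021 without NTC replicate 1 and ranged from -0.034 to 0.021 when libraries were left out. PSMB6 was at 0.002 with RLE scaling and 0.002 with DESeq2 and ranged from -0.05 to 0.056. PSME2 ranged from -0.056 to 0.009. The cause was not tested.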

Other observations

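The table also listed 13 proteasome pseudogenes, which are copies of member genes. PSMA6P1 rose with its parent gene, from 30.3, 32.2 and 32.7 CPM in NTC to 44.8, 45.2 and 41.5 CPM in Set7KD (edgeR adjusted p = 9.59e-05), and the groups did not overlap. PSMC1P9 had 2.05, 1.81 and 1.93 CPM in NTC and 2.6, 2.72 and 3.0 CPM in Set7KD (edgeR adjusted p = 0.0402), while its parent PSMC1 went down without passing. That call was lost in DESeq2, at 0.164, and without each of the 6 libraries in turn, at 0.065 to 0.116. The other 11 pseudogenes did not pass, among them PSMD7P1, with mean CPM of 17.9 (NTC) and 18.7 (Set7KD), and PSMA2P3, with 28.3 and 29.7. Both genes were named after their values were seen. Whether reads were split between a gene and its copies was not tested.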
